A study of Mus musculus with 13 samples.

Results

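The mucus genes of intestinal goblet cells described here are Muc2, Tff3, Clca1, Fcgbp, Agr2, Zg16, Muc13, Muc3, Ccl6 and Retnlb, a list of 10 genes taken by symbol. Of these, 9 had a probe set annotated to them alone, among 19938 genes with such a probe set, and all 9 were among the 16721 genes bright enough to be tested. Fcgbp, which encodes an IgG Fc-binding mucus protein, was represented only by 3 probe sets that carry other gene symbols as well, and no value is given for it. The genes were measured in mouse enterocytes, the epithelial cells of the gut, on 13 expression arrays.

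The mice were of the 129/SVJ background and carried a gut-specific knockout of casein kinase Iα (CKIα, gene Csnk1a1), a kinase that helps to degrade β-catenin and so restrains Wnt signalling. Heterozygous animals (CKIα Het) were the controls, so the controls also carried a knocked-out allele, and no array came from an animal without one. Both genotypes were also examined in mice lacking p21, a cell cycle inhibitor (CKIα Het/p21 KO and CKIα KO/p21 KO), and in mice lacking p53, the tumour suppressor that activates it (CKIα Het/p53 KO and CKIα KO/p53 KO). Each of these 6 groups had 2 arrays, called biological replicates in the labels. The promoter that drives the gut deletion and the age of the animals were not given in the sources used here. A remaining array, whose labels disagree on its genotype, entered no comparison.

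Goblet cells are the secretory cells of the intestinal epithelium that make mucus. Muc2 is the mucin that forms the mucus gel. It is folded in the endoplasmic reticulum with the help of the disulfide isomerase Agr2, heavily O-glycosylated, packed into granules and released together with Tff3, Clca1, Zg16 and Fcgbp. Muc13 and Muc3 are membrane-bound mucins that absorptive cells also carry on their apical surface, so they are less specific to goblet cells. Ccl6 is a chemokine, and Retnlb (RELMβ) is a goblet cell peptide known to be induced by microbes and by type 2 cytokines. Secretory cells are specified by the transcription factor Atoh1, and goblet cells mature under Spdef.

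All values are log2 intensities of 1 probe set per gene, and differences are in log2 units with the standard error of the fit. Differences were tested with limma over 12 arrays, and a gene was called when its p-value, adjusted over all 16721 genes (Benjamini-Hochberg), was under 0.05. The spread was pooled over the 6 groups, so a standard error does not show where a gene varied more in some groups than in others. For Clca1 the SD of the 2 arrays was 0.21, 0.12 and 0.01 in CKIα Het, CKIα Het/p21 KO and CKIα Het/p53 KO. It was 0.38, 0.83 and 1.08 in the matching knockout groups. Muc3 instead had its largest SD, 0.71, in CKIα Het/p53 KO. In bulk RNA of this kind, fewer cells of a type and less RNA per cell cannot be told apart.

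Promoter sequences are shown for 3 members picked after their values were seen. Muc2 and Agr2 were lower in CKIα KO, and Muc13 was slightly higher, with a call near the threshold. Ccl6, which was also lower, had a window with 0 matches to the motifs below and is not printed. Whether the letters bear on the values was not tested. The sequences come from the RefSeq promoter table of GRCm38.p6, which had an entry for 6 of the 10 genes. In each 300-base window, exact letters of 6 motifs were searched on both strands: the TATA box TATAAA, the TCF/LEF motif ATCAAAG, the forkhead motif TGTTTAC, the E-boxes CAGCTG and CATCTG (the kind of site bound by Atoh1 and its relatives) and a STAT6 motif (TTC, then any 4 bases, then GAA). The 250 bases upstream of each start are printed 5′ to 3′ on the plus strand, with matches in capitals. Those of Muc2 are chr7:141690090-141690339, those of Agr2 chr12:35992675-35992924 and those of Muc13 chr16:33793787-33794036.
Muc2 promoter: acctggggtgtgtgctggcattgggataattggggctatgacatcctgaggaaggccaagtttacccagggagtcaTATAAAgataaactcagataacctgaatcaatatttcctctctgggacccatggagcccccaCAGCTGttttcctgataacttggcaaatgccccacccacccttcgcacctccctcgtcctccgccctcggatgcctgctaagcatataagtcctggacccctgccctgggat
Agr2 promoter: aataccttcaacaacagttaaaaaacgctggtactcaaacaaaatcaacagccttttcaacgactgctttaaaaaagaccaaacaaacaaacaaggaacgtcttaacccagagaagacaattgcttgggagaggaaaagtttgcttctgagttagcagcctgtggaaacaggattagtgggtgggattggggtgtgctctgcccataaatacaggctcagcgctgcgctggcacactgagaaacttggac
Muc13 promoter: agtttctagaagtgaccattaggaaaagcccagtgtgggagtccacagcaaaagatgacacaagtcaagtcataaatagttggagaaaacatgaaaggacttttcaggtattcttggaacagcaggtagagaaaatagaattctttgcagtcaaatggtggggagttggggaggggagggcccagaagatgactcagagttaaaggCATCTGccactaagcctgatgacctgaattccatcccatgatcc
The Muc2 window held TATAAA at positions -174 to -169 and CAGCTG at positions -112 to -107, counted from the start of the gene. The Muc13 window held CATCTG at positions -44 to -39, and none of the 6 letter strings was found in the Agr2 window. Variants of these letters were not searched, so a match or its absence does not show where a working TATA box or other site lies. Of all 32851 promoter windows of this length, 13.6% held TATAAA, 16.3% held CAGCTG and 17.2% held CATCTG. The shares for the other motifs were 3.73% for ATCAAAG, 3.65% for TGTTTAC and 6.95% for the STAT6 motif. GC content was 55.3% in the Muc2 window, 47.3% in the Agr2 window and 46.3% in the Muc13 window.

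Averaged over the 3 backgrounds, 6 of the 9 mucus genes fell in CKIα KO and 1 rose. Muc2, Tff3, Clca1, Zg16, Agr2 and Ccl6 were lower by 0.67 to 1.48 log2 units, Muc13 was slightly higher, and Muc3 and Retnlb did not pass the test. Of all tested genes, 8.96% were called lower and 15.5% higher in the same comparison. The median difference was -1.06 over the 9 genes and -0.03 over all genes. The 6 lower calls held when each of the 12 arrays was left out in turn.

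**Figure D1:**
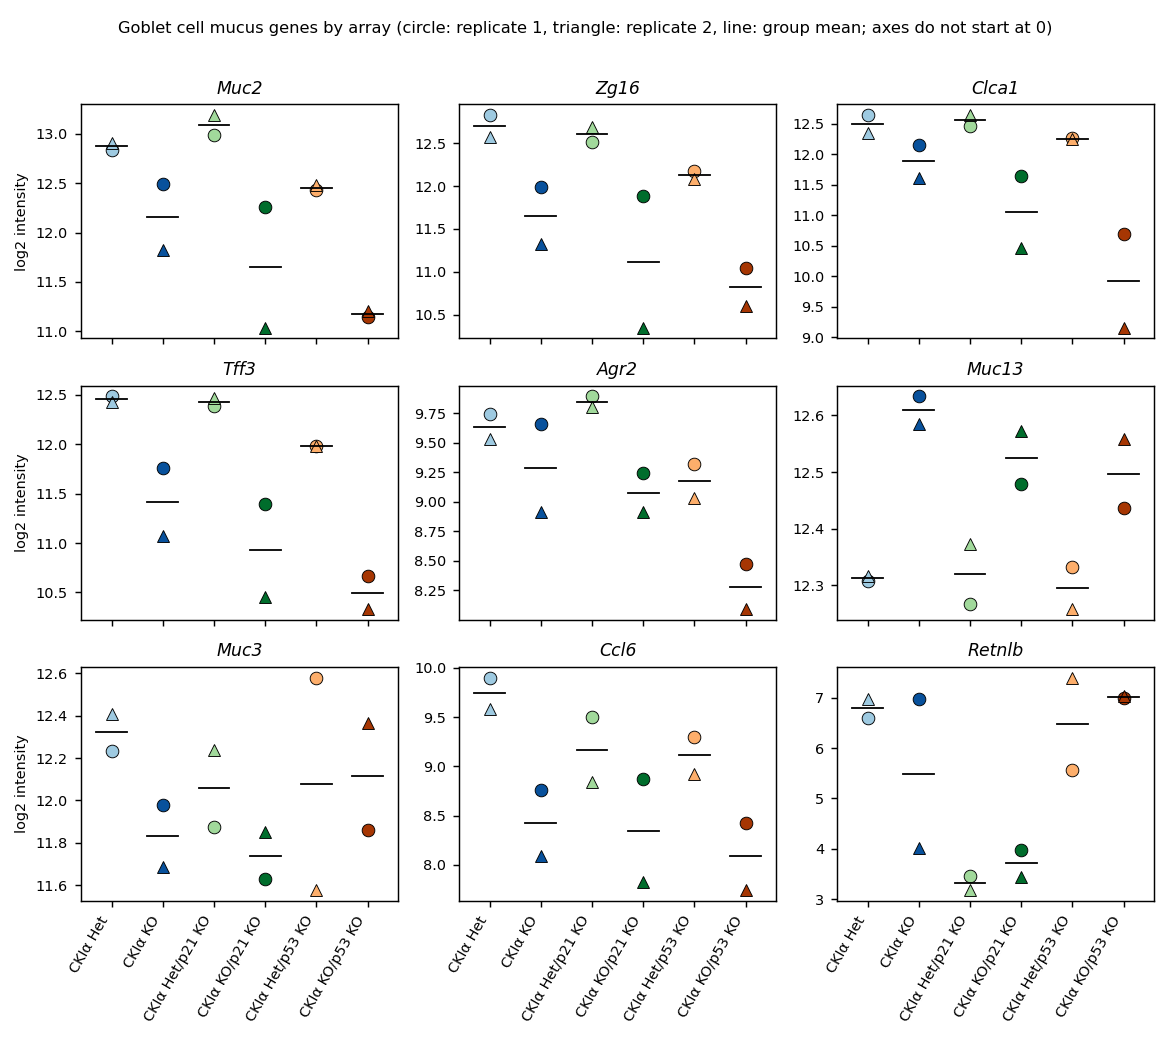
Each panel shows 1 gene, with log2 intensity on the vertical axis and the 6 groups along the horizontal axis; circles are replicate 1, triangles replicate 2 and lines the group mean. Tff3, Clca1 and Zg16 are lower on all 6 CKIα KO arrays than on any of the 6 CKIα Het arrays, Muc13 is higher on all of them, and Retnlb is low on the arrays of both p21 KO groups.

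Muc2, the gel-forming mucin on chromosome 7, was at 12.84 and 12.91 in CKIα Het, 12.99 and 13.19 in CKIα Het/p21 KO, and 12.43 and 12.48 in CKIα Het/p53 KO. In the knockouts it was at 12.49 and 11.82 in CKIα KO, 12.26 and 11.04 in CKIα KO/p21 KO, and 11.14 and 11.20 in CKIα KO/p53 KO. In each background both knockout arrays were below both heterozygous arrays, but over all 12 arrays the groups overlapped, because CKIα KO replicate 1 was as high as the CKIα Het/p53 KO arrays. The average difference was -1.15 ± 0.20 (SE, 6 against 6 arrays; adjusted p = 0.00415), or 2.22-fold lower. In order of its group means, Muc2 was at 13.09 ± 0.14 (SD, n = 2) in CKIα Het/p21 KO, 12.87 ± 0.05 in CKIα Het, 12.45 ± 0.04 in CKIα Het/p53 KO, 12.15 ± 0.47 in CKIα KO, 11.65 ± 0.87 in CKIα KO/p21 KO and 11.17 ± 0.04 in CKIα KO/p53 KO. The neighbouring means of CKIα KO and CKIα KO/p21 KO, and of CKIα KO/p21 KO and CKIα KO/p53 KO, lay within the larger of their SDs of each other, as did those of CKIα Het/p53 KO and CKIα KO.

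Tff3, a trefoil peptide that is secreted with Muc2 and aids epithelial repair, followed the same order of backgrounds in the knockouts. The CKIα Het arrays were at 12.48 and 12.43, those of CKIα Het/p21 KO at 12.38 and 12.47, and both arrays of CKIα Het/p53 KO at 11.99. The knockout arrays were at 11.76 and 11.08 in CKIα KO, 11.40 and 10.45 in CKIα KO/p21 KO, and 10.66 and 10.33 in CKIα KO/p53 KO. All 6 knockout arrays were below all 6 heterozygous arrays, which was the case for 1.96% of all genes. The average difference was -1.34 ± 0.17 (adjusted p = 0.00209), or 2.54-fold lower.

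Zg16, a lectin of the mucus that binds bacteria, likewise separated the 6 knockout from the 6 heterozygous arrays. It was at 12.83 and 12.57 in CKIα Het, 12.52 and 12.68 in CKIα Het/p21 KO, and 12.18 and 12.08 in CKIα Het/p53 KO. It was at 11.99 and 11.32 in CKIα KO, 11.88 and 10.35 in CKIα KO/p21 KO, and 11.04 and 10.60 in CKIα KO/p53 KO. The lowest value was that of CKIα KO/p21 KO replicate 2, more than a log2 unit below its partner. The average difference was -1.28 ± 0.24 (adjusted p = 0.00575), or 2.43-fold lower.

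Clca1, a secreted metalloprotease that processes Muc2 and is abundant in mucus, had the largest average difference of the 9 genes, -1.48 ± 0.27 (adjusted p = 0.00556), or 2.79-fold lower. The heterozygous arrays were close together, at 12.64 and 12.34 in CKIα Het, 12.46 and 12.64 in CKIα Het/p21 KO, and 12.26 and 12.24 in CKIα Het/p53 KO. The knockout arrays were spread, at 12.15 and 11.61 in CKIα KO, 11.63 and 10.45 in CKIα KO/p21 KO, and 10.69 and 9.16 in CKIα KO/p53 KO. CKIα KO/p53 KO replicate 2 was the lowest of all arrays, and all 6 knockout arrays were below all 6 heterozygous ones.

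Agr2, the disulfide isomerase, changed less. It was at 9.74 and 9.53 in CKIα Het, 9.89 and 9.80 in CKIα Het/p21 KO, and 9.32 and 9.03 in CKIα Het/p53 KO. The knockout arrays were at 9.66 and 8.92 in CKIα KO, 9.24 and 8.91 in CKIα KO/p21 KO, and 8.47 and 8.09 in CKIα KO/p53 KO. With p53 and p21 present the genotypes overlapped, since CKIα KO replicate 1 was between the 2 CKIα Het arrays, whereas they were separate with either gene knocked out. The average difference was -0.67 ± 0.14 (adjusted p = 0.00951), or 1.59-fold lower.

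Of the membrane-bound mucins, Muc13 rose slightly and Muc3 did not pass the test. Muc13 was at 12.31 and 12.32 in CKIα Het, 12.27 and 12.37 in CKIα Het/p21 KO, and 12.33 and 12.26 in CKIα Het/p53 KO. It was at 12.63 and 12.59 in CKIα KO, 12.48 and 12.57 in CKIα KO/p21 KO, and 12.44 and 12.56 in CKIα KO/p53 KO. All 6 knockout arrays were above all 6 heterozygous arrays, as for 3.74% of all genes. The average difference was 0.23 ± 0.07 (adjusted p = 0.0353), or 1.18-fold higher. This call was near the threshold: it was lost in 10 of the 12 fits with 1 array left out, holding without replicate 1 of CKIα KO/p21 KO or of CKIα KO/p53 KO (adjusted p from 0.0391 to 0.0877), and over the 12 the difference stayed between 0.21 and 0.26. It was also lost with an intensity trend in the fit (adjusted p = 0.0557).

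Muc3 ranged from 11.58 to 12.58 over the 12 arrays, and both extremes were CKIα Het/p53 KO arrays. Its average difference was -0.26 ± 0.18 (adjusted p = 0.309), with a 95% interval from -0.65 to 0.13. The SD over the 12 arrays was 0.33 for Muc3 and 0.14 for Muc13, against 0.76 for Muc2 and 1.07 for Clca1. These membrane-bound mucins thus varied less over the arrays than the secreted mucus genes.

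Ccl6, a CC chemokine made by goblet cells in the gut and by myeloid cells, was at 9.90 and 9.59 in CKIα Het, 9.50 and 8.84 in CKIα Het/p21 KO, and 9.30 and 8.93 in CKIα Het/p53 KO. It was at 8.76 and 8.09 in CKIα KO, 8.87 and 7.82 in CKIα KO/p21 KO, and 8.43 and 7.74 in CKIα KO/p53 KO. With p21 knocked out the genotypes overlapped, and in the other backgrounds they did not. The average difference was -1.06 ± 0.22 (adjusted p = 0.00948), or 2.08-fold lower. Markers of myeloid cells were also present: of 12 tested, 2 rose (Cd68 and Cd14) and 3 fell (Csf1r, Adgre1 and Tyrobp) in the same comparison, where Cd14 alone held with each array left out and no marker fell without CKIα KO replicate 2 or CKIα KO/p53 KO replicate 2. In this comparison 15.5% of all genes were called higher and 8.96% lower. The mean log2 level of that marker list was from 4.67 to 5.30 on the heterozygous arrays and from 4.74 to 5.07 on the knockout arrays. The part of myeloid cells in the Ccl6 difference was not tested.

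Retnlb had the widest spread of the 9 genes, with an SD of 1.70 over the 12 arrays. It was at 6.60 and 6.98 in CKIα Het, 6.97 and 4.01 in CKIα KO, 5.56 and 7.39 in CKIα Het/p53 KO, and 6.98 and 7.03 in CKIα KO/p53 KO. In CKIα Het/p21 KO it was at 3.46 and 3.18, and in CKIα KO/p21 KO at 3.98 and 3.45. All 4 arrays with p21 knocked out were below the other 8, though CKIα KO replicate 2 was only just above them. The share of all genes with this split is not given here. On 3 of these 4 arrays with p21 knocked out, Retnlb was at or below the array's 25th percentile. The average CKIα difference was -0.12 ± 0.47 (adjusted p = 0.869), with a 95% interval from -1.17 to 0.92, which spans about a log2 unit on either side of 0. Leaving out CKIα KO replicate 2 turned its sign, to 0.37, and leaving out CKIα Het/p53 KO replicate 2 gave 0.18.

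**Figure D2:**
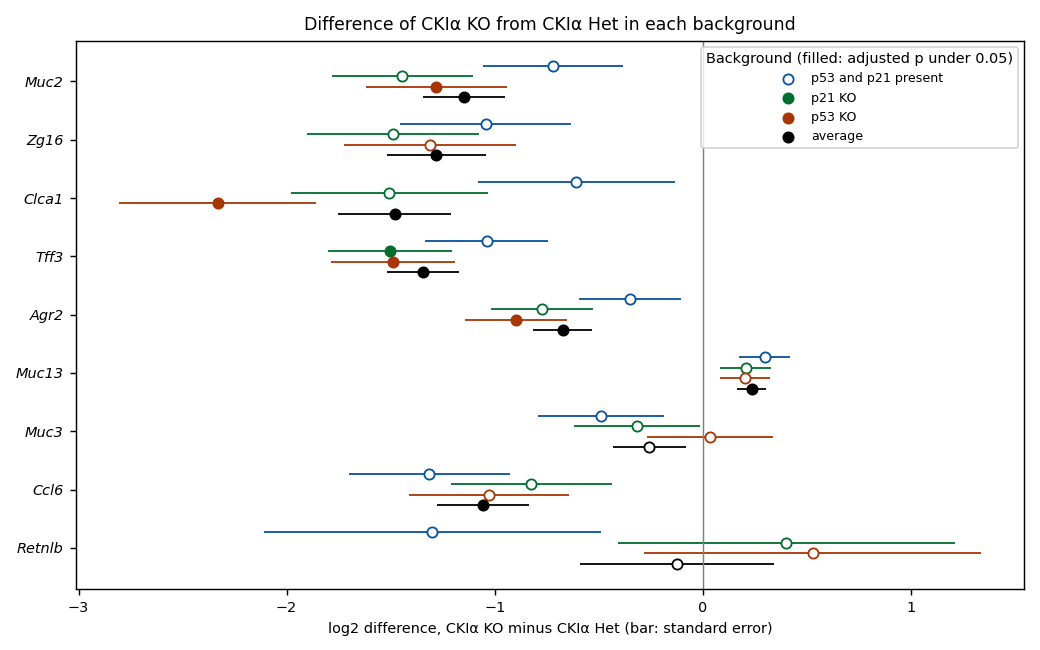
The horizontal axis is the log2 difference of CKIα KO from CKIα Het for each of the 9 genes; colours mark the backgrounds and their average, bars are standard errors, and filled points have an adjusted p under 0.05. Muc2, Tff3, Clca1 and Agr2 are filled with p53 knocked out, Tff3 alone with p21 knocked out, and none with p53 and p21 present.

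With p53 and p21 present, no mucus gene was called in CKIα KO by limma. An unadjusted p under 0.05 was reached by 4 of the 9 and by 1520 of all genes. These 4 were Tff3, Zg16 and Ccl6, which were lower, and Muc13, which was higher. Only 0.0239% of all genes were called in this comparison, all of them higher. The differences were -0.72 ± 0.34 for Muc2 (adjusted p = 0.581), -1.04 ± 0.30 for Tff3 (adjusted p = 0.296) and -1.32 ± 0.39 for Ccl6 (adjusted p = 0.309). For 6 of the 9 genes both knockout arrays were below both heterozygous ones, which was so for 16.8% of all genes, and for Muc13 both were above (22.3%). The median over the 9 genes was -0.72, and that over all genes 0.02. Leaving out CKIα KO replicate 2 took the median of the 9 to -0.34 and Muc2 to -0.38, and turned the sign of Agr2, from -0.35 to 0.02, and that of Retnlb, from -1.30 to 0.18.

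With p21 knocked out, Tff3 alone was called, by -1.50 ± 0.30 (adjusted p = 0.0466), while 0.514% of all genes were called lower. Muc2 was lower by a similar amount, -1.44 ± 0.34, without passing the test (adjusted p = 0.0574), as were Zg16 (-1.49 ± 0.41, adjusted p = 0.079) and Clca1 (-1.51 ± 0.47, adjusted p = 0.102). For 6 of the 9 genes both knockout arrays were below both heterozygous ones (24.3% of all genes), and for Muc13 both were above (26.9%). The median over the 9 genes was -0.83, and -1.35 without CKIα KO/p21 KO replicate 1. The Tff3 call was lost without the filter on dim genes (adjusted p = 0.0507) and in 9 of the 12 fits with 1 array left out, among them those without either CKIα Het/p21 KO array and without CKIα KO/p21 KO replicate 2. It was lost too without either CKIα Het array, either CKIα Het/p53 KO array or either CKIα KO/p53 KO array, which bear on it only through the pooled spread and the adjustment over genes. Without CKIα KO/p21 KO replicate 1, more genes were called both among the 9 and over all genes.

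With p53 knocked out, 4 of the 9 genes fell: Clca1 by 2.33 ± 0.47 (adjusted p = 0.0133), Tff3 by 1.49 ± 0.30 (adjusted p = 0.0128), Muc2 by 1.28 ± 0.34 (adjusted p = 0.0303) and Agr2 by 0.90 ± 0.25 (adjusted p = 0.0345). As folds these were 5.03, 2.81, 2.43 and 1.86. Of all genes, 6.82% were called lower. Zg16 was at -1.31 ± 0.41 (adjusted p = 0.0535) and Ccl6 at -1.03 ± 0.39 (adjusted p = 0.0908), neither passing. With the replicate number as a block, which the labels do not name as a pairing, both passed (adjusted p = 0.0303 and 0.00973). The knockout arrays were below the heterozygous ones for 6 of the 9 genes (35.7% of all genes) and above them for Muc13 (28.9%). The median was -1.03 over the 9 genes and -0.06 over all genes. The count of 4 fell to 0 without CKIα Het/p53 KO replicate 1, without CKIα Het/p53 KO replicate 2 or without CKIα KO/p53 KO replicate 2, and to 2 without CKIα KO/p53 KO replicate 1. Counts over all genes moved with it, from 2981 calls to 20 without CKIα Het/p53 KO replicate 1.

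Whether the CKIα difference itself depended on p21 or p53 was tested as a difference of differences, and no mucus gene was called by limma in either. For p21 the share of all genes called was 0%, with 1359 genes and 0 of the 9 at an unadjusted p under 0.05. For p53 it was 0.0179%, with 2485 genes and 1 of the 9, Clca1, at an unadjusted p under 0.05. The Clca1 difference was 1.72 log2 units more negative with p53 knocked out than with both genes present (-1.72 ± 0.67, adjusted p = 0.288). The 95% intervals were wide and not adjusted over genes. That of Clca1, from -3.22 to -0.23, left out 0, but the difference did not pass the adjustment. The larger number of calls with p53 knocked out is therefore not shown to be a larger effect.

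Comparing knockouts directly, none of the 9 genes was called between CKIα KO/p53 KO and CKIα KO, where 0.694% of all genes were. These comparisons share arrays with those above. Clca1 was at -1.96 ± 0.47 (adjusted p = 0.0657), Agr2 at -1.01 ± 0.25 (adjusted p = 0.067), Muc2 at -0.98 ± 0.34 (adjusted p = 0.132) and Tff3 at -0.92 (adjusted p = 0.117). These 4 had an unadjusted p under 0.05, as had 3727 of all genes. With the replicate block, Clca1 and Agr2 passed (adjusted p = 0.042 and 0.0394). The count of called mucus genes rose above 0 without either CKIα KO/p21 KO array, without CKIα KO replicate 2 or without CKIα KO/p53 KO replicate 1. How calls over all genes moved in these fits is not given here. Between CKIα KO/p21 KO and CKIα KO, 0.0359% of all genes and 0 of the 9 were called, with 2005 genes and 0 of the 9 at an unadjusted p under 0.05. The differences of all 9 genes were below 0 there, as were 56.3% of all genes, with a median of -0.49 against -0.04 over all genes. This rested on single arrays. Without CKIα KO/p21 KO replicate 2, Muc2, Zg16 and Ccl6 turned sign and the median was -0.05; without CKIα KO replicate 1, Agr2, Muc3 and Ccl6 turned and it was -0.15. Without CKIα KO/p21 KO replicate 1, Muc3 turned and the median was -0.97. Without CKIα KO replicate 2 the median was -0.83.

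Among heterozygous animals, loss of p53 or p21 alone gave no call among the 9 genes by limma. Between CKIα Het/p53 KO and CKIα Het, 0% of all genes were called, and 941 genes but 0 of the 9 had an unadjusted p under 0.05. All 9 genes were below 0 in this comparison, as were 43.4% of all genes, with a median of -0.42 against 0.03 over all genes. Muc13 and Muc3 turned sign without CKIα Het/p53 KO replicate 2, and Retnlb without replicate 1 of that group. Between CKIα Het/p21 KO and CKIα Het, 0.00598% of all genes were called, and 837 genes and 1 of the 9, Retnlb, had an unadjusted p under 0.05. Retnlb had a mean of 6.79 in CKIα Het and 3.32 in CKIα Het/p21 KO, where it was at or below the 25th percentile on both arrays, so only a bound is given. Set against that percentile, it was at least 8.87-fold lower, but it did not pass the adjustment over all genes (adjusted p = 0.473). The other 8 genes lay between -0.57 (Ccl6) and 0.22 (Muc2), and the median over the 9 was -0.03. Tff3, Clca1, Zg16 and Muc13, which lay near 0, changed sign when single arrays of these groups were left out.

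**Figure D3:**
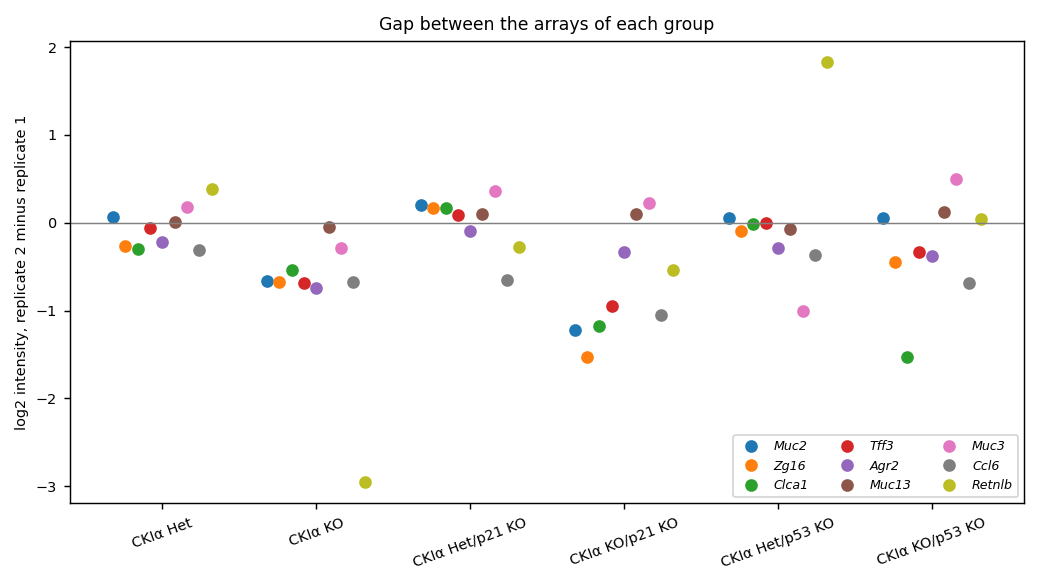
The vertical axis is the log2 intensity of replicate 2 minus that of replicate 1 for each of the 9 genes, shown by colour, in the 6 groups along the horizontal axis. In CKIα KO all 9 genes were lower on replicate 2, and in CKIα KO/p21 KO 6 of the 9 were lower by more than 0.5.

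Replicate 2 was well below replicate 1 for most of the mucus genes in CKIα KO and CKIα KO/p21 KO. In CKIα KO, replicate 2 was below replicate 1 for all 9 genes, and by more than 0.5 log2 units for 7, against 7.3% of all genes. In CKIα KO/p21 KO this was so for 6 of the 9 genes, against 9.2% of all genes, and in CKIα KO/p53 KO for 2, against 6.14%. In CKIα Het it was so for 0 of the 9 genes (1.69% of all genes), and in CKIα Het/p21 KO and CKIα Het/p53 KO for 1 each (6.24% and 4.29% of all genes). The replicate numbers also differed in Xist, an RNA of the inactive X chromosome, which was between 3.15 and 3.94 on all replicate 1 arrays and between 8.91 and 10.10 on all replicate 2 arrays.

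The direction of the CKIα difference was the same within each replicate number for 8 of the 9 genes, over 3 knockout and 3 heterozygous arrays each. For Muc2 it was -0.79 among replicate 1 arrays and -1.51 among replicate 2 arrays. For Tff3 it was -1.01 and -1.68, for Clca1 -0.96 and -2.0, for Zg16 -0.87 and -1.69, for Agr2 -0.53 and -0.82, and for Ccl6 -0.88 and -1.23. Muc13 was at 0.21 and 0.26, and Muc3 at -0.41 and -0.11. Retnlb differed in sign, at 0.77 among replicate 1 arrays and -1.02 among replicate 2 arrays. The difference between replicate numbers in these effects was not tested. The share of all genes with the same direction within both replicate numbers is not given here.

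Likeness between genes was measured as the root mean square difference of log2 values centred on each gene's mean, over the 12 arrays, where smaller is more alike. Muc2, Tff3 and Zg16 lay close together, at 0.14 between Tff3 and Zg16, 0.16 between Muc2 and Tff3, and 0.19 between Muc2 and Zg16. Besides these, the genes nearest to Muc2 among all tested were Map3k13, a kinase, at 0.19 and Myo15b, an unconventional myosin gene, at 0.21. Clca1 was nearest to Pdzk1 (0.24), a scaffold protein of the apical membrane, then Rep15 (0.25), a Rab15 effector and goblet cell marker, Slc10a5 (0.29) and Creb3l2 (0.29), and was at 0.41 from Tff3. These 4 genes differed between CKIα KO/p53 KO and CKIα Het/p53 KO by -1.88 ± 0.46 (Rep15) to -2.83 ± 0.61 (Slc10a5). They were chosen for their likeness over the same arrays, so these are descriptions with no test.

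Retnlb was unlike the other mucus genes, at 1.59 to 2.04 from each of them. Its nearest genes were also far, with Hal (histidase) at 1.19, Enpp5 at 1.25, and Trim30d and Tmem267 at 1.27. Between CKIα Het/p21 KO and CKIα Het, Trim30d differed by -2.43 ± 0.59 and Hal by -1.05 ± 0.22, given without a test for the same reason.

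Of 19 other goblet cell markers tested, 9 fell and 1 rose on average over the backgrounds, against 8.96% and 15.5% of all genes, with a median of -0.39. Those with the smallest p were Sytl2 (-1.19 ± 0.14, adjusted p = 0.00197), a granule-docking protein, Bcas1 (-1.40 ± 0.18, adjusted p = 0.00201), and the calpains Capn8 (-0.84 ± 0.11, adjusted p = 0.00223) and Capn9 (-1.42 ± 0.19, adjusted p = 0.00225). Without p21, 5 of the 19 fell and 0 rose (0.514% and 1.46% of all genes); without p53, 7 fell and 1 rose (6.82% and 11% of all genes); with both genes present limma called 0 of them. The gene that rose with p53 knocked out was Tmsb10, an actin-binding peptide, at 1.14 ± 0.24 (adjusted p = 0.0155). Spink4, another secreted goblet cell peptide, named here after its values were seen, stayed between 9.33 and 10.50 on the 12 arrays and was not called. The 9 lower calls on average were between 8 and 10 with 1 array left out. With p21 knocked out they fell to 0 without either CKIα Het/p21 KO array, and with p53 knocked out without either CKIα Het/p53 KO array or CKIα KO/p53 KO replicate 2.

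Of 12 transcription factors of the secretory lineage, 4 fell and 1 rose on average, against 8.96% and 15.5% of all genes. Atoh1 fell by 0.86 ± 0.10 (adjusted p = 0.00194), Klf4 by 0.76 ± 0.20 (adjusted p = 0.021) and Spdef by 0.41 ± 0.09 (adjusted p = 0.0108), whereas Foxa1 rose by 0.54 ± 0.17 (adjusted p = 0.0403). Atoh1 was between 8.21 and 8.93 on the 6 heterozygous arrays and between 7.53 and 8.09 on the 6 knockout arrays, which did not overlap. It was also the only factor of the list called with p21 knocked out (-1.23 ± 0.17, adjusted p = 0.0253) and with p53 knocked out (-0.73 ± 0.17, adjusted p = 0.0214). The average calls of Atoh1 and Spdef held in all 12 fits with an array left out. That of Klf4 held in 6 of them, being lost without replicate 2 of CKIα Het, CKIα KO or CKIα Het/p21 KO, replicate 1 of CKIα KO/p53 KO or either CKIα Het/p53 KO array, and that of Foxa1 held only without CKIα KO replicate 1 or CKIα KO/p21 KO replicate 1. The Atoh1 call with p21 knocked out was lost without either CKIα Het array, either CKIα Het/p21 KO array or CKIα KO/p21 KO replicate 2, and that with p53 knocked out without CKIα Het/p53 KO replicate 1 or CKIα KO/p53 KO replicate 2.

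Of 22 tested enzymes that glycosylate mucins, 5 fell and 2 rose on average, against 8.96% and 15.5% of all genes, with a median of -0.12. Fut2, the fucosyltransferase that adds the terminal fucose of intestinal mucins, rose by 1.36 ± 0.26 (adjusted p = 0.00671), and Galnt3, which starts O-glycan chains, by 0.73 ± 0.17 (adjusted p = 0.0133). Gcnt4, a branching enzyme, fell by 0.88 ± 0.15 (adjusted p = 0.00404), and Fut8, the core fucosyltransferase of N-glycans, by 0.39 ± 0.09 (adjusted p = 0.0156). Fut2 was from 4.72 to 5.96 on the heterozygous arrays and from 5.68 to 7.22 on the knockout arrays, so they overlapped. With p53 knocked out, 3 enzymes rose (Fut2, Galnt3 and Gcnt1) and 1 fell (Gcnt4), against 11% and 6.82% of all genes, and with p21 knocked out or both present limma called 0 of the 22. The average calls of the 4 named enzymes held with each array left out, but the 5 lower calls became 2 without CKIα KO replicate 2.

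Among 15 tested relatives of the mucus genes (other mucins, trefoil peptides, and Clca, Agr and Retn family members), 2 rose and 2 fell on average, against 15.5% and 8.96% of all genes. Muc4, a membrane-bound mucin, rose by 1.65 ± 0.24 (adjusted p = 0.00275). With p53 knocked out Muc4 rose by 2.13 ± 0.42 (adjusted p = 0.0128). Muc6, a gel-forming mucin of the stomach whose gene lies next to Muc2, rose there by 1.43 ± 0.32 (adjusted p = 0.0185). Clca4a, a neighbour of Clca1, fell there by 1.10 ± 0.28 (adjusted p = 0.0283). In that background 11% of all genes were called higher and 6.82% lower. The average Muc4 call held with each array left out; without replicate 2 of either CKIα Het or CKIα KO no relative fell on average, and without CKIα Het/p53 KO replicate 1 or CKIα KO/p53 KO replicate 2 none of the calls with p53 knocked out remained. Muc6 was at 5.29 and 6.55 in CKIα KO/p53 KO and between 4.24 and 4.79 on the other 10 arrays. Muc3, Clca1, Ccl6 and Retnlb have near relatives beside them in the genome, and whether their probe sets also pick up those relatives was not tested.

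**Figure D4:**
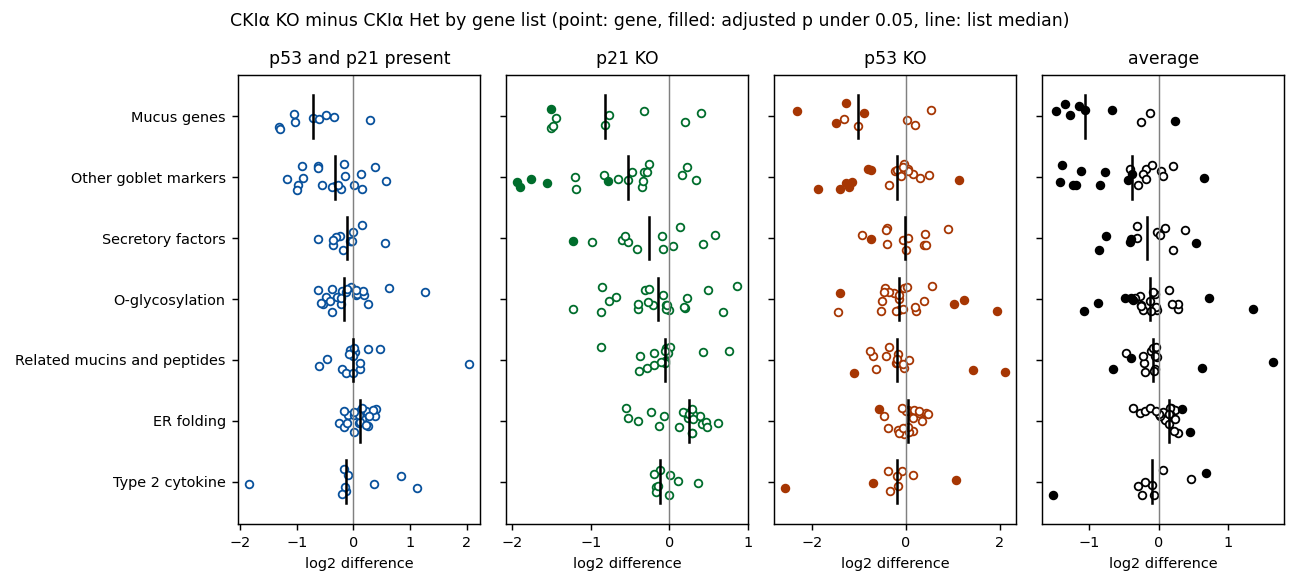
Each point is 1 gene of the list named on the vertical axis, the horizontal axis is the log2 difference of CKIα KO from CKIα Het, and the 4 panels are the 3 backgrounds and their average; filled points have an adjusted p under 0.05 and the line is the list's median. In the average, 6 of the 9 mucus genes and 9 of the 19 other goblet cell markers were called lower (8.96% of all genes). Of the 21 genes of the endoplasmic reticulum list, 2 were called higher (15.5% of all genes).

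Of 21 genes of protein folding and secretion in the endoplasmic reticulum, where Agr2 acts, 2 rose on average and 0 fell, against 15.5% and 8.96% of all genes. These were Pdia4 (0.45 ± 0.11, adjusted p = 0.0171), a disulfide isomerase, and Ssr4 (0.33 ± 0.09, adjusted p = 0.0213), a translocon-associated protein. The median of the list was 0.15, and both calls were lost without CKIα Het replicate 1 or CKIα Het/p21 KO replicate 2. The Ssr4 call was also lost without replicate 2 of CKIα Het, CKIα KO, CKIα KO/p21 KO or CKIα Het/p53 KO. Type 2 cytokine signalling is known to induce Clca1 and Retnlb. Of 9 of its genes, Ccl24 (eotaxin 2) fell by 1.52 ± 0.24 (adjusted p = 0.00345), where 8.96% of all genes were called lower. The receptor chain Il4ra rose by 0.68 ± 0.15 (adjusted p = 0.0105), where 15.5% of all genes were called higher. In mice lacking p53, Ccl24 fell by 2.57 ± 0.42 (adjusted p = 0.00803) and Il4ra rose by 1.07 ± 0.25 (adjusted p = 0.0217). Il13ra1, another receptor chain, fell there by 0.70 ± 0.19 (adjusted p = 0.0326). In that background 6.82% of all genes were called lower and 11% higher. The Il13ra1 call was lost without CKIα Het/p53 KO replicate 1 or either CKIα KO/p53 KO array.

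Markers of other cell types were called in both directions in the same average comparison. Of 11 enteroendocrine markers 8 fell, among them Chga by 1.28 ± 0.14 (adjusted p = 0.00192), and of 11 absorptive enterocyte markers 6 fell, among them Lct (lactase) by 2.65 ± 0.55 (adjusted p = 0.00845). With 1 array left out these counts were from 8 to 9 and from 3 to 9, and the 3 came without CKIα KO replicate 1, either CKIα Het/p53 KO array, or replicate 2 of CKIα Het, CKIα Het/p21 KO, CKIα KO/p21 KO or CKIα KO/p53 KO. Of 8 crypt base markers 5 rose and 1 fell, led by the Wnt target Axin2 (1.86 ± 0.13, adjusted p = 0.000707). Of 6 tuft cell markers 3 fell and 1 rose, and of 6 Paneth cell markers 1 rose. These counts stand against 8.96% of all genes called lower and 15.5% called higher. The mean log2 level of the enterocyte markers was from 12.31 to 12.67 on the heterozygous arrays and from 11.08 to 12.39 on the knockout arrays, so the labelled cell type was present throughout. The mean of the enteroendocrine markers was from 6.45 to 6.85 and from 5.10 to 6.38, respectively. Whether these marker differences reflect cell make-up, and its part in the mucus gene differences, was not tested.

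Non-epithelial cells left traces too. All 10 lymphocyte markers tested were below 0 in the average comparison, as were 54.4% of all genes. Their median was -0.53, though limma called 0 of them. With p21 knocked out all 10 were below 0. With p53 knocked out Gzma, Gzmb and Klrd1 were above 0, and with both genes present Ptprc and Cd79a were. Their mean log2 level was from 6.91 to 8.59 on the heterozygous arrays and from 6.25 to 8.15 on the knockout arrays, and it was lowest in CKIα KO/p21 KO. Of 8 mast cell and eosinophil markers and 9 fibroblast and smooth muscle markers, 0 were called, but single arrays stood apart: the mast cell protease Mcpt1 was at 11.57 on CKIα KO/p53 KO replicate 1 and at 4.38 on replicate 2. The part of these cells in the mucus gene values was not tested. Csnk1a1 itself was between 10.44 and 10.80 on all 13 arrays and was not called (0.01 ± 0.08 on average, adjusted p = 0.915), so its probe set does not check the labels.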

How the data were processed

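Total RNA of mouse enterocytes was hybridized to Affymetrix arrays. Per the labels' protocols, the authors extracted intensities with Affymetrix Expression Console 1.1 (RMA Sketch) and normalized them by the median. The deposited values of 35556 probe sets on 13 arrays were read as log2 intensities, since their medians lie between 4.96 and 5.12; the base of the logarithm is not given in the sources used here. Median normalization removes a shift common to all probe sets, and RMA compresses differences of dim ones. The number of arrays limits the precision.

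Probe sets with 1 symbol in the platform annotation (21789; 1621 had several and 12146 none) gave 19938 genes, with the brightest probe set used where there were several. Symbols of 19855 were matched by Entrez number to RefSeq, GRCm38.p6, and 0 differed. The 16721 genes above an array's own 25th percentile on at least 2 of 12 arrays were fitted with limma 3.58.1 in R 4.3.3 (6 group means, 6 residual degrees of freedom) in 10 comparisons. Two-sided p-values were adjusted by Benjamini-Hochberg, with calls under 0.05. The test was checked on simulated data. P-values rest on the spread between arrays pooled over the groups.

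The 10 members and all gene lists were chosen with earlier results of these data known. Named were the members, the called genes of each list with the smallest p (up to 4), Csnk1a1, and the 4 genes most like Muc2, Clca1 and Retnlb; predicted, Riken, accession and numbered symbols were passed over. As alternatives, the filter was dropped, quantile normalization was added, and the fit was repeated with an intensity trend, the replicate number as a block, the mean over probe sets, and without each array. The array with disagreeing labels was left out of all fits.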

Additional observations from a re-analysis of the deposited data

Results flagged for a closer look

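The array left out of every comparison has a title that makes it another CKIα KO/p53 KO replicate, whereas its genotype label mentions no p53 knockout. On it Muc13 was at 12.61 and Retnlb at 8.05, each above all 6 CKIα Het arrays. For Retnlb, 8.05 was also above the highest of the 12 arrays compared, 7.39, while for Muc13 the highest was 12.63. These are values of a single array, with no test.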

How the results depend on the processing

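The count of called mucus genes averaged over the backgrounds was 7, was 6 with an intensity trend, and lay between 6 and 7 with 1 array left out; the 6 lower genes were called under all 5 alternatives and in all 12 fits with an array left out. With p53 knocked out the count was 4, from 0 to 6 with 1 array left out, and 6 with the replicate block. With p21 knocked out it was 1, fell to 0 without the filter on dim genes, and was from 0 to 5 with 1 array left out. It was from 0 to 2 with 1 array left out for CKIα KO/p21 KO against CKIα KO. For CKIα KO/p53 KO against CKIα KO it was 0, rose to 2 with the replicate block, and was from 0 to 4 with 1 array left out. The counts of the other 5 comparisons were 0 under every alternative. Calls over all genes with p21 knocked out numbered 330, but 163 without the filter, 219 after quantile normalization, 0 without CKIα Het/p21 KO replicate 2 and 2777 without CKIα KO/p21 KO replicate 1. For CKIα KO/p53 KO against CKIα KO they were 116, and 338 with the replicate block. For the remaining fits with an array left out, calls over all genes are not given here. The same holds for the replicate block with p53 knocked out. The counts of mucus genes in those fits therefore cannot be set against a share of all genes.

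In the comparisons of CKIα KO with CKIα Het, signs turned when single arrays were left out, and in none of the other alternatives. With p53 and p21 present, the range was from -0.72 to 0.02 for Agr2 and from -2.78 to 0.18 for Retnlb. With p53 knocked out it was from -0.47 to 0.54 for Muc3 (-0.22 without CKIα KO/p53 KO replicate 2) and from -0.39 to 1.45 for Retnlb. For the average of Retnlb it was from -0.62 to 0.37. Signs also turned with 1 array left out in the comparisons that share a CKIα genotype: the genes below 0 numbered from 6 to 9 for CKIα KO/p21 KO against CKIα KO, 6 to 7 for CKIα KO/p53 KO against CKIα KO (Ccl6 turning), 3 to 7 for CKIα Het/p21 KO against CKIα Het and 7 to 9 for CKIα Het/p53 KO against CKIα Het. The cause was not tested, beyond there being fewer arrays in each such fit, where the lone array of a group is assumed to vary like the rest.

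With p53 knocked out, the calls of Tmsb10, Muc4, Muc6, Clca4a and Il4ra held in 8 to 9 of the 12 fits with an array left out, and were lost only without one of the 4 p53 KO arrays; that of Ccl24 was lost only without CKIα KO/p53 KO replicate 2.

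The labels name no pairing of the replicate numbers. Over 15 pairs of groups, the deviations of replicate 1 from the group means correlated between -0.16 and 0.25, and the numbers were not taken as pairs. These low correlations do not show that the replicate number has no effect. Xist was between 3.15 and 3.94 on all replicate 1 arrays and between 8.91 and 10.10 on all replicate 2 arrays. Some calls changed with the replicate number as a block.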

Other observations

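On the array with disagreeing labels, the secreted mucus genes were at 12.37 for Muc2, 11.65 for Tff3, 11.76 for Clca1 and 11.64 for Zg16, and Agr2 was at 9.42. Each of these is above both CKIα KO/p53 KO arrays. Muc3 was at 11.75 and Ccl6 at 8.15 there, and Atoh1 at 7.58.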
